A study of Mus musculus with 12 samples.

Results

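Metallothioneins and zinc transporters set how much zinc a cell holds. The genes described here were the metallothioneins Mt1 and Mt2, the metal-sensing transcription factor Mtf1, the exporters Slc30a1 (ZnT1) and Slc30a10 (ZnT10) and the importers Slc39a8 (ZIP8) and Slc39a14 (ZIP14). They were taken by gene symbol and were 7 of the 31053 genes counted at embryonic day E16.5 (E16.5 below) and 7 of the 22597 counted at postnatal day 3 (P3). The assay was droplet-based single-cell RNA-seq (10x Genomics) of dissociated mouse liver, in which each unique molecular identifier (UMI) stands for 1 captured RNA molecule. The labels name 3 genotypes at each stage, Jag1+/+, Jag1Ndr/+ and Jag1Ndr/Ndr, with 2 samples of each, all offspring of parents heterozygous for the Ndr allele of the Notch ligand gene Jag1, with no other allele or treatment named. Dead cells were removed from all suspensions. A trypsin substitute was added at E16.5 and not at P3, so stage and dissociation cannot be told apart. The homozygous P3 pups were picked by their jaundice.

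The 12 deposited samples held 9 separate libraries. At E16.5 there were 5, namely Jag1+/+ replicate 1, Jag1Ndr/+ replicate 1, Jag1Ndr/Ndr replicates 1 and 2, and a shared library, whose same values had been deposited for Jag1+/+ and Jag1Ndr/+ as replicate 2 of each. At P3, 68.4% and 62.1% of the barcodes of one wild-type sample (library A) recurred in the 2 homozygous samples. Of the other wild-type sample (library B), 73.8% recurred in a homozygous sample, and its barcodes included 100% of those of a heterozygous sample, so the genotype of A and B was unclear. Library C was homozygous replicate 1 without the barcodes of A, and library D was Jag1Ndr/+ replicate 1. The 36 pairs of these libraries shared 0 to 1.54% of their barcodes. All values below are listed in this order, which for E16.5 is Jag1+/+ replicate 1, shared library, Jag1Ndr/+ replicate 1, Jag1Ndr/Ndr replicate 1 and Jag1Ndr/Ndr replicate 2, and for P3 is A, B, C and D.

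Metallothioneins are small cysteine-rich proteins that bind zinc and copper and buffer the free ion. When zinc rises in the cell, MTF1 binds metal response elements in promoters and switches on Mt1, Mt2 and Slc30a1. SLC30 proteins move zinc out of the cytosol, and SLC39 proteins move it in. ZnT10 is known above all as a manganese exporter, and ZIP8 and ZIP14 also carry manganese and iron. The fetal liver is known for high metallothionein levels and is at the same time the main site of red cell formation, whose cells need iron and zinc.

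Mt1 and Mt2 lie side by side on the plus strand of chromosome 8 (GRCm38), Mt2 at 94172664 to 94173568 and Mt1 at 94179082 to 94180327, with 5513 bases between them. Mtf1 lies on chromosome 4, 124802104 to 124849800, Slc30a1 on chromosome 1, 191906767 to 191913247, Slc30a10 on chromosome 1, 185454848 to 185468762, Slc39a8 on chromosome 3, 135825279 to 135888572 and Slc39a14, on the minus strand, on chromosome 14, 70303469 to 70351425. RefSeq promoter windows of 300 bases, 250 before and 50 after the start, were found for 6 of the 7 genes. They were searched on both strands for TGCACNC and TGCGCNC, the core letters of the metal response element, where N is any base. The 250 bases before the start are printed 5′ to 3′, with matches in capitals, for the 4 genes with more than 1 match in a window, because MTF1 acts through such elements (RefSeq, GRCm38.p6, plus strand).
Mt1 chr8:94178839-94179088: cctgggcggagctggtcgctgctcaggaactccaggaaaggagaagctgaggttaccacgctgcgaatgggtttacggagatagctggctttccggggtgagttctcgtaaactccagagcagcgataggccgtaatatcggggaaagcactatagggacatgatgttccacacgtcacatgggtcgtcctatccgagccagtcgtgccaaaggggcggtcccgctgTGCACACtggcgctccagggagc
Mt2 chr8:94172368-94172617: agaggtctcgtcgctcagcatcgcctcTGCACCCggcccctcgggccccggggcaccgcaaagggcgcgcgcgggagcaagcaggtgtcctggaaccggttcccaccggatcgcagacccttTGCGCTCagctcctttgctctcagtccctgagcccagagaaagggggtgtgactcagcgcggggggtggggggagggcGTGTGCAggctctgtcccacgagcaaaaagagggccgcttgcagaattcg
Slc30a1 chr1:191906531-191906780: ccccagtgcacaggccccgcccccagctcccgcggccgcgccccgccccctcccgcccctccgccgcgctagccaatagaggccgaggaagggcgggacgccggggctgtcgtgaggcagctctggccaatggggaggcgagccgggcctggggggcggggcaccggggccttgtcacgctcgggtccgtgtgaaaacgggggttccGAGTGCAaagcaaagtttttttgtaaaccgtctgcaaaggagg
Slc30a10 chr1:185454598-185454847: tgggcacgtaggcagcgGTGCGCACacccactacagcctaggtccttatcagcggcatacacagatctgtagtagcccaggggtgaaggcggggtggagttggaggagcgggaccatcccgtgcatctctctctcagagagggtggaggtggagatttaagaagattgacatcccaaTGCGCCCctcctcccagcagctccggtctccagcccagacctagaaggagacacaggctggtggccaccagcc
The whole window of Mt2 held 4 matches, 3 of them before the start, and that of Mt1 held 3, of which 1 lay before the start. Slc30a10 had 3 matches, of which a pair overlapped on opposite strands, and Slc30a1 had 2, with 1 before the start. One of the windows of Slc39a8 held 1 match and Mtf1 held none, which says only that these letters were not in that window. Among 32851 RefSeq windows of the same length, 25.7% held at least 1 match, 7.11% at least 2, 1.97% at least 3 and 0.517% at least 4. Before and after refer to the start that RefSeq gives, and bases beyond the windows were not searched. A match is a description of the letters and not evidence of binding.

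Barcodes were kept from 1000 UMIs upward if no more than 15% of these were mitochondrial, 15024 to 29034 per library with a median of 2961 to 9256 UMIs. Clusters were named from marker lists, and 12 cell classes had at least 20 cells in each library and were tested. The labelled liver was mostly blood-forming tissue: the 3 erythroid classes made up 60.01 to 71.5% of cells at E16.5 and 39.1 to 53.2% at P3, and hepatocyte-like cells 3.43 to 5.33% and 0.585 to 2.41%. These shares, and the shares of a gene's UMIs below, were taken over all cells left after doublets were removed, with the 2 unnamed P3 clusters counted in the total. Globin RNA, which erythroid cells make, was also measured in the other classes, as free RNA from broken cells would give. In the 9 tested classes that were not erythroid, globin RNA stood at 20.7 to 88.4% of the level of the whole library in E16.5 livers, against 12.0 to 123% in P3 livers, and this share was used below to gauge how much of a gene's level could come with free RNA.

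Mt1, Mt2, Slc39a8, Slc39a14 and Slc30a10 were lower at P3 than at E16.5 in sums over whole libraries. The Mt1 level was 1678, 2619.8, 1534, 1009.9 and 3243 CPM at E16.5 (UMIs scaled to the same total in each library) and 362, 334, 294 and 361 CPM at P3. Each E16.5 library lay above each P3 library, and the mean fell from 2017 ± 898 (SD, n = 5) to 338 ± 31.7 (SD, n = 4), with a log2 fold change of -3.17 ± 0.30 SE with adjusted p = 2.13e-05 (quasi-likelihood test of edgeR, Benjamini-Hochberg adjusted over all genes, as in the tests that follow; means are given ± SD over 5 libraries at E16.5 and 4 at P3). Mt2 stood at 823, 1339.6, 698, 437 and 1443 CPM at E16.5 and 117, 111, 92.8 and 167 CPM at P3, again without overlap (log2 fold change -3.54 ± 0.32 SE with adjusted p = 1.76e-05). The importer Slc39a14, which takes up iron, zinc and manganese in hepatocytes, had a level of 3.44, 5.09, 2.72, 3.70 and 3.57 CPM at E16.5 and 1.77, 1.58, 1.26 and 1.46 CPM at P3, and all P3 libraries were the lower ones (log2 fold change -1.88 ± 0.15 SE with adjusted p = 8.23e-06). In a whole library, fewer cells of a type and less RNA per cell cannot be told apart.

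Slc39a8 had its E16.5 values between 18.8 and 52.2 CPM and its P3 values between 9.16 and 23.2 CPM, with overlapping groups (log2 fold change -1.52 ± 0.25 SE with adjusted p = 0.000476). Slc30a10 overlapped as well, with means of 31.6 ± 12.9 and 24.4 ± 13.4 CPM and a log2 fold change of -0.95 ± 0.33 SE with adjusted p = 0.033. That call was lost without any 1 of Jag1+/+ replicate 1, the shared library, Jag1Ndr/+ replicate 1, Jag1Ndr/Ndr replicate 2, B or C (adjusted p from 0.0501 to 0.0811). Slc30a1 and the sensor Mtf1 did not pass the test (log2 fold changes -0.30, adjusted p = 0.188 and -0.16, adjusted p = 0.12). Their mean CPM was higher at P3, 8.33 ± 2.01 against 6.95 ± 2.91 for Slc30a1 and 19.7 ± 1.20 against 14.8 ± 4.16 for Mtf1, so their direction depended on the scaling: the median gene was 0.61 higher on the log2 scale at P3 in CPM and 0.02 higher after normalization by trimmed means (TMM). Of the 7 genes, 5 passed and all 5 were lower, against 7835 of 14504 genes tested (54.0% called, 26.4% lower and 27.6% higher). The median log2 fold change of the 7 was -1.52, and that of all genes tested was 0.02. Ranges that did not overlap and were lower at P3 were found for 3 of the 7 genes (Mt1, Mt2 and Slc39a14) and for 4.42% of genes with a mean of at least 1 CPM.

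**Figure D1:**
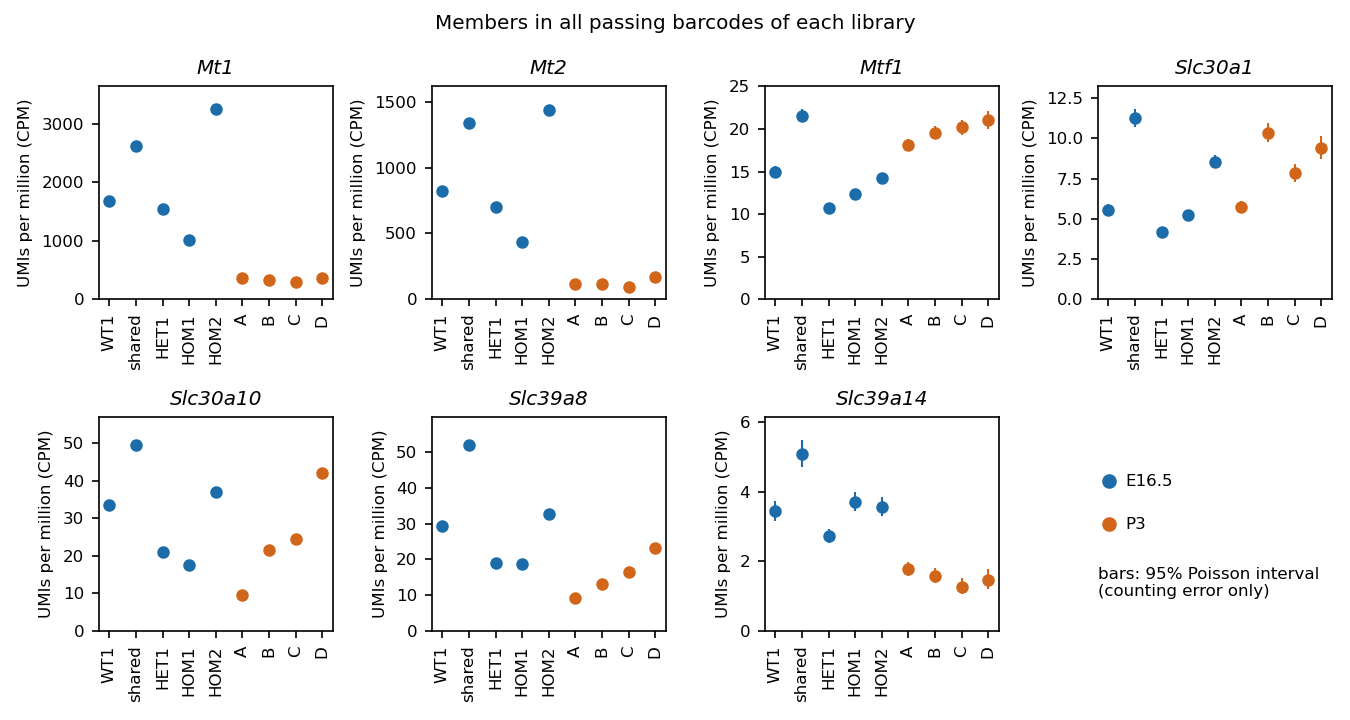
Level of each of the 7 genes in every library in CPM, with 95% Poisson intervals that cover counting error only. The E16.5 libraries are labelled WT1, shared, HET1, HOM1 and HOM2 and the P3 libraries A to D. The Mt1 points of E16.5 lie between 1009.9 and 3243 and those of P3 between 294 and 362.

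Within single classes the metallothioneins were highest in hepatocyte-like cells and erythroid precursors. At E16.5, hepatocyte-like cells had the highest mean Mt1, 5526 ± 1514 (SD, n = 5) CPM, followed by erythroblast-like (3135 ± 1170.0), early erythroid-like (2362 ± 511) and macrophage-like cells (2086 ± 657). Basophil- and mast-like cells came last at 734 ± 374 CPM, and no class in this order was separated from its neighbour by range. At P3 the order was sharper: hepatocyte-like cells at 2181 ± 471 (SD, n = 4) CPM lay above early erythroid-like cells at 1412 ± 144, and these above endothelial-like cells at 321 ± 59.6, each time without overlap. For Mt2 the P3 order began with early erythroid-like cells at 662 ± 138 (SD, n = 4) CPM, apart from hepatocyte-like cells at 193 ± 61.1, which were apart from mesenchymal-like cells at 88.2 ± 28.3. The P3 mesenchymal-like class was a single cluster of 313 cells, led by the islet hormone genes Ins2 and Ins1 ahead of the collagen gene Col3a1, with Iapp also among its leading genes.

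The level that could come with free RNA came near the measured level in lower classes. At E16.5 the Mt1 level that would come with the globin of a class was 419 to 1656 CPM in B-like cells, beside measured levels of 568 to 2147 CPM. In hepatocyte-like cells the Mt1 level exceeded what went with globin by 2448 to 5843 CPM before birth and 1759 to 2832 CPM after it. In early erythroid-like cells the excess was 1336 to 1939 and 1242 to 1566 CPM, and in macrophage-like cells 401 to 963 and 59.2 to 156 CPM. In P3 B-like cells it was below zero, from -55.0 to -12.6 CPM. The part of free RNA in the stage differences of the classes was not tested.

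Both metallothioneins fell at P3 in each of the 12 classes tested. Across all members, 51 of 80 gene and class pairs passed the test, 49 lower and 2 higher at P3, against 58002 of 122448 pairs over all genes (47.4% called, 23.7% lower and 23.7% higher). Mt2 ranges were apart and lower in 12 of 12 classes and Mt1 ranges in 11 of 12, where 11.9% of all pairs with a mean of at least 1 CPM were apart and lower, and 21.0% apart and higher. The neutrophil-like class joined clusters of different Mt1 level. Those led by Elane held 402 to 974 CPM at E16.5 and 439.5 to 493 CPM at P3, with overlap. The Ngp-led E16.5 cluster held 483 to 1465 CPM and the Chil3-led P3 cluster 51.0 to 68.4 CPM. The part of class make-up in the neutrophil-like fall was not tested. In hepatocyte-like cells the Mt1 level was 5113, 7165, 3407, 5128 and 6816 CPM at E16.5 and 2043, 1889, 1912 and 2879 CPM at P3. Library D was the highest at P3 and still lay below Jag1Ndr/+ replicate 1, the lowest at E16.5 (log2 fold change -1.50 ± 0.21 SE with adjusted p = 6.56e-05).

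Hepatocyte-like Mt2 fell further, from 1506, 1889, 837, 1340.0 and 1798 CPM at E16.5 to 170.5, 220.0, 119.6 and 261 CPM at P3 (log2 fold change -3.10 ± 0.25 SE with adjusted p = 9.99e-07). All P3 libraries lay below all E16.5 libraries. The hepatocyte-like class joined clusters of different purity. At E16.5 its largest cluster, 3201 cells, held 11759 CPM of albumin RNA (Alb) and 280522 CPM of the beta-globin RNA Hbb-bs, while a cluster of 676 cells of high UMI count held 64785 CPM of Alb and 7252 CPM of Mt1. Restricted to such high-UMI clusters, Mt1 and Mt2 were again lower at P3 (log2 fold changes -1.33, adjusted p = 6.03e-05 and -2.31, adjusted p = 1.74e-05). Each of these cells had an Mt1 UMI in every library, with a median of 118 to 183 Mt1 UMIs per cell at E16.5 and 20 to 46 at P3, at median depths of 18306 to 27708 and 9220.0 to 21604 UMIs.

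**Figure D2:**
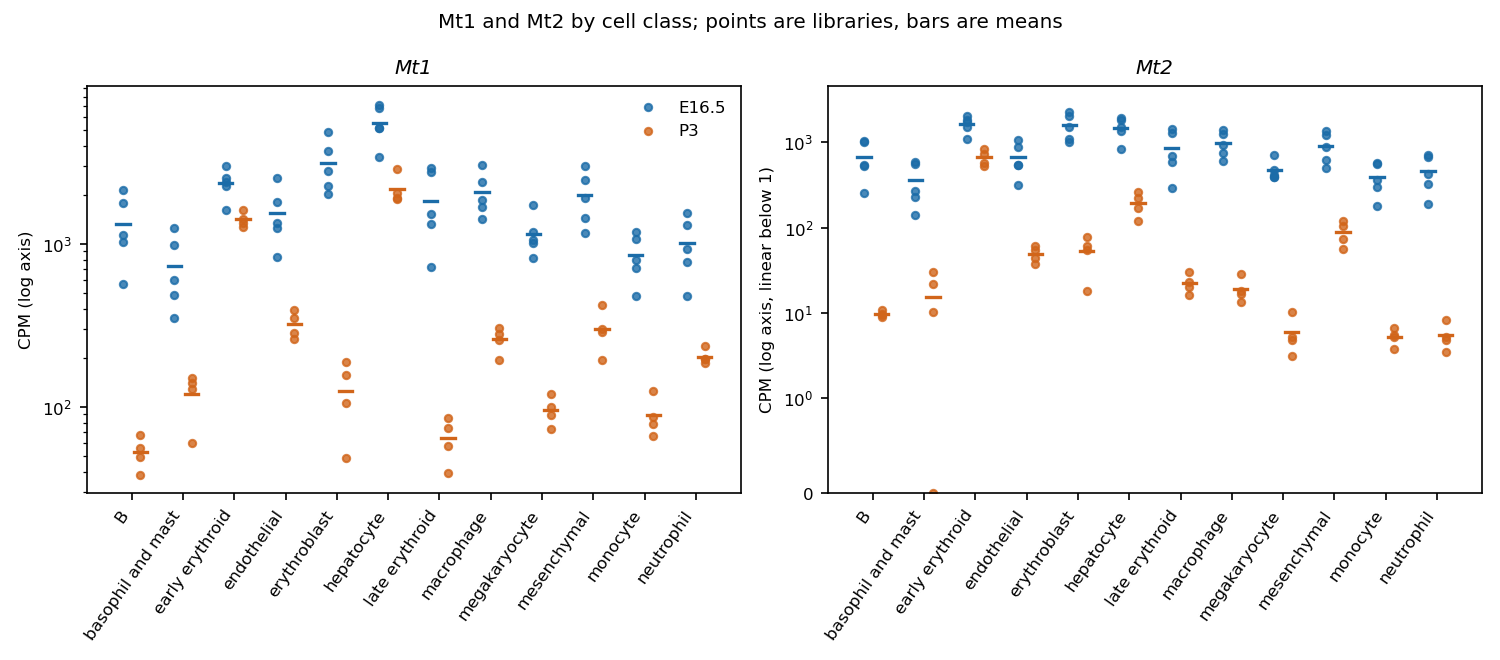
Mt1 and Mt2 in CPM on a log axis for each tested cell class, with 1 point per library, coloured by stage. The Mt2 points of the stages are apart in 12 of 12 classes, and the Mt1 points in 11 of 12, where the early erythroid-like class overlaps.

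Of the 12 fitted fold changes of Mt1, and likewise of Mt2, that in early erythroid-like cells was closest to 0. These are the Kit- and Car1-expressing precursors that give rise to erythroblasts. At E16.5 none of the leading genes of their cluster was a marker of the class. That cluster held 134 CPM of Kit and 118 CPM of Car1, beside 8.49 and 113 CPM in the largest erythroblast-like cluster. At P3 the leading genes of the early erythroid-like cluster began with Mt2, Car1 and Mt1, though Mt1 and Mt2 were left out of the clustering. The Mt1 level of early erythroid-like cells was 2258, 2543, 2391, 1604 and 3013 CPM at E16.5 and 1604, 1271, 1345 and 1429 CPM at P3. Library A and Jag1Ndr/Ndr replicate 1 met at the edge of the ranges (log2 fold change -0.87 ± 0.20 SE with adjusted p = 0.00371). In erythroblast-like cells, the next step of red cell formation, Mt1 stood at 2808, 3704, 2271, 2013 and 4878 CPM at E16.5 and at 188, 156, 48.7 and 106 CPM at P3 (log2 fold change -4.31 ± 0.44 SE with adjusted p = 9.65e-06). All P3 libraries lay below all E16.5 libraries there, with C lowest. The Mt1 level that would come with the Alb RNA found in these cells was 72.8 to 127 CPM in E16.5 livers. That gauge covers only free RNA that goes with Alb. For E16.5 T- and NK-like cells it gave 34.2 to 55.9 CPM, while their cluster held 889 CPM of Mt1. Late erythroid-like cells followed, with 1514, 2765, 1323, 717 and 2906 CPM at E16.5 and 74.5, 84.7, 57.8 and 39.3 CPM at P3 (log2 fold change -4.33 ± 0.34 SE with adjusted p = 1.29e-06).

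Between the classes named early erythroid-like and erythroblast-like, Mt1 differed little at E16.5 and was much lower in the latter at P3. On the log2(CPM + 1) scale, early erythroid-like minus erythroblast-like Mt1 was -0.36 ± 0.29 (SD, n = 5) at E16.5 and 3.65 ± 0.81 (SD, n = 4) at P3. The difference of 4.01 had p = 0.015873 in a two-sided exact permutation test of 5 against 4 libraries, the smallest this design allows, and 0.0381 after adjustment over 12 such tests. Mt1 against late erythroid-like cells (3.99), Mt2 against both classes (3.69 and 3.71) and Slc39a8 against erythroblast-like cells (0.49) also passed, so that 5 of 12 did. With any 1 library left out none passed, where the smallest p allowed was 0.0286 or 0.0357. This test was added after the data had been seen.

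The size of that difference depended on which cells the erythroblast-like class held. At E16.5 it included a cluster of 12663 cells with Tmem14c, Acp5 and Cldn13 among its leading genes. It also included a cluster of 12105 cells led by the embryonic globin genes Hbb-y and Hba-x, with 1 erythroblast marker and also Mt2, Mt1, Lars2, AY036118 and Gm42418 among its 10 leading genes, and with 2237 to 4616 CPM of Mt1. At P3 a cluster of 2910 cells led by Tmem14c, with Acp5 and Cldn13 likewise among its leading genes, was in no class, and its Mt1 stood at 239.7 to 606 CPM. By the naming rule its first class was early erythroid-like, tied with late erythroid-like at 1 leading marker each. Its Car1 level was 680 CPM, beside 892 CPM in P3 early erythroid-like and 223 CPM in P3 erythroblast-like cells. Its level of the transferrin receptor gene Tfrc was 575 CPM, beside 208 and 729 CPM. The classes therefore need not hold the same steps of red cell formation at both stages. Counting this P3 cluster as early erythroid-like was not tried. With that P3 cluster counted as erythroblast-like, an alternative chosen after seeing the data, P3 Mt1 in the class was 346, 281, 139.7 and 227 CPM in A to D, still below all E16.5 libraries. The difference then came to 2.93 for Mt1 and 2.47 for Mt2 and passed for both (exact permutation, adjusted p = 0.0317). For Slc39a8 it turned from 0.49 to -0.70 and passed in that direction (exact permutation, adjusted p = 0.0317), and 8 of 12 tests passed. Leaving the Hbb-y-led cluster out of the E16.5 class, likewise chosen after seeing the data, gave 4.02 for Mt1 and 3.67 for Mt2, with Mt1 at 1923 to 5015 CPM in the remaining E16.5 cells. With both changes the values were 2.94 and 2.45 (exact permutation, adjusted p = 0.0381 for each of these 4), and Slc39a8, at -0.37, did not pass (exact permutation, adjusted p = 0.0544).

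The lower P3 level was also seen cell by cell. Among P3 erythroblast-like cells, 44.8%, 32.7%, 14.4% and 17.9% had an Mt1 UMI in A to D, against 99.7 to 100% at E16.5. After thinning each cell to 1000 UMIs, the minimum depth kept, the share was 4.01 to 13.6% at P3 and 83.8 to 97.9% at E16.5. In P3 T- and NK-like cells, used as a measure of background, it was 9.13 to 18.3% before and 2.04 to 2.97% after thinning, at median depths of 3662 to 7715 UMIs against 2997 to 6338 in erythroblast-like cells. In E16.5 T- and NK-like cells, in the 4 libraries that held enough of them, the share was 91.9 to 100% before and 32.3 to 77.6% after thinning, at median depths of 6657.5 to 17262 UMIs against 3120.0 to 5518, so the background itself was far higher before birth. P3 early erythroid-like cells stayed at 97.5 to 98.8% (69.2 to 77.6% thinned). These early cells made up 4.29 to 5.53% of P3 cells, the unnamed clusters counted in the total, and held 52.4 to 59.9% of the Mt1 UMIs and 73.2 to 76.7% of the Mt2 UMIs. Their median depth was 11304 to 22287 UMIs, beside 2961 to 6235 over the kept barcodes of P3 libraries, and a share of UMIs also rises with depth. At E16.5 the early erythroid-like cells were 1.55 to 2.26% of cells with 2.66 to 11.3% of the Mt1 UMIs. Hepatocyte-like cells held 7.96 to 16.8% of the Mt1 UMIs at E16.5 and 4.13 to 10.2% at P3.

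**Figure D3:**
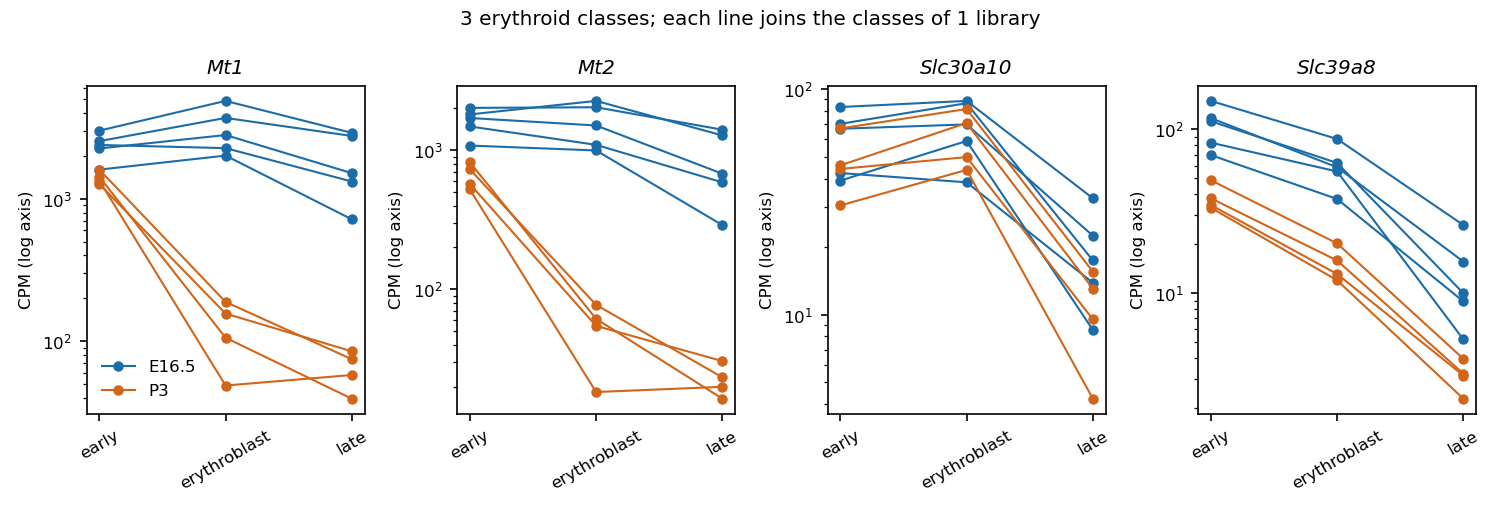
Members along early erythroid-like, erythroblast-like and late erythroid-like cells, in CPM on a log axis, with 1 line per library, coloured by stage. The panels show Mt1, Mt2, Slc30a10 and Slc39a8. Early minus erythroblast-like Mt1 averages -0.36 on the log2 scale in the E16.5 lines and 3.65 in the P3 lines.

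The balance between the metallothioneins shifted toward Mt1 at P3 in 10 of 12 tested classes. Mt1 and Mt2 are closely related genes, and how reads matching both were assigned is not given in the sources used here. Software version and gene list also differ between the stages. A change of read assignment therefore cannot be told apart from a change of balance. In hepatocyte-like cells Mt1 made up 77.3%, 79.1%, 80.3%, 79.3% and 79.1% of Mt1 plus Mt2 UMIs at E16.5 and 92.3%, 89.6%, 94.1% and 91.7% at P3. The P3 libraries were all above the E16.5 libraries, and the mean rose by 12.9 percentage points from 79.0% ± 1.09 to 91.9% ± 1.87 (SD, two-sided exact permutation p = 0.015873, 0.0229 adjusted over 13 tests). Restricted to high-UMI clusters, the mean went from 84.3% ± 2.51 to 91.2% ± 1.90, a smaller rise of 6.94 points. Of the E16.5 clusters in the class, the largest stood at 69.8% and the high-UMI cluster at 84.1%. In early erythroid-like cells the share went from 59.3% ± 2.91 to 68.3% ± 3.52 (exact permutation, adjusted p = 0.0229), the lowest mean of the tested classes at both stages. In neutrophil-like cells it reached 97.4% ± 0.670 at P3 from 69.2% ± 1.96, a change of 28.3 points (exact permutation, adjusted p = 0.0229). There 330.3 to 1118 CPM of Mt1 would come with globin at E16.5, beside measured levels of 479.9 to 1549 CPM, and at P3 Mt2 was -17.3 to -8.06 CPM relative to the level that would come with globin. The P3 share was 97.4 to 99.3% in the neutrophil-like cluster led by Elane and 81.0 to 85.8% in the larger one led by Retnlg. The part of free RNA in this change was not tested. At E16.5 the 10 classes other than hepatocyte-like and early erythroid-like cells lay close together, with means of 66.4 to 70.7%, and at P3 they spread from 70.2 to 97.4%. The rise did not pass in erythroblast-like (66.4% ± 1.61 to 70.2% ± 4.85, exact permutation, adjusted p = 0.143, with D at 63.2%) or mesenchymal-like cells (means of 68.9% and 76.8%, exact permutation, adjusted p = 0.103). Over whole libraries the rise of 5.57 points did not pass (68.2% ± 1.52 to 73.8% ± 3.60, exact permutation p = 0.0635, adjusted 0.0750). Library D lay at 68.4% there, and without it the rise was 7.36 points (exact permutation p = 0.0357, unadjusted).

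**Figure D4:**
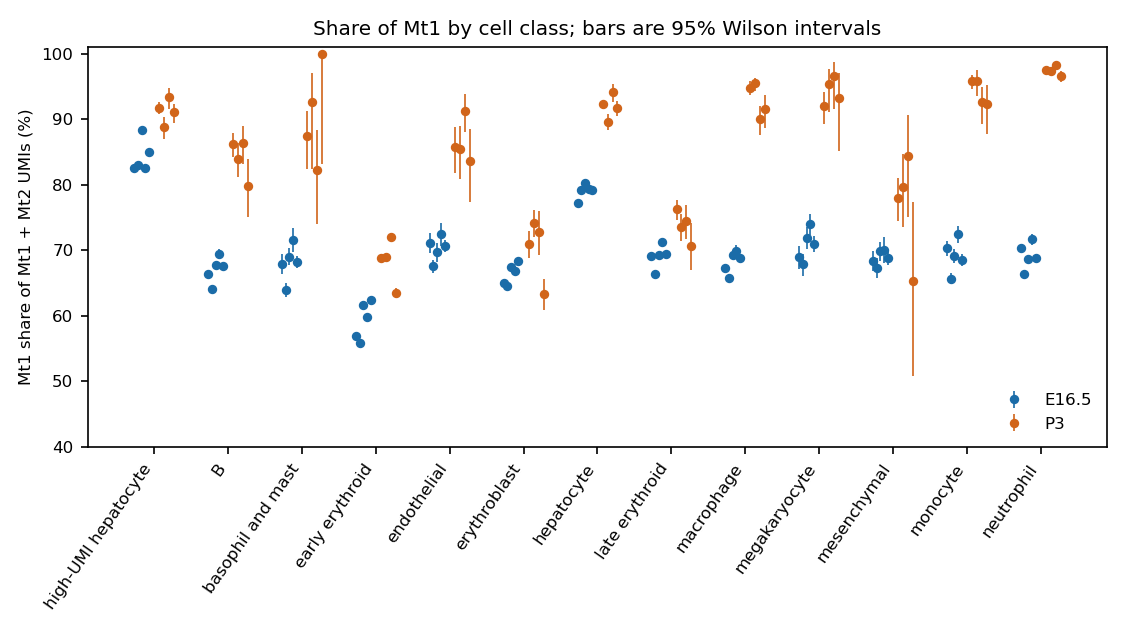
Share of Mt1 in Mt1 plus Mt2 UMIs, in percent, for high-UMI hepatocyte-like cells and the tested classes, with 1 point per library and 95% Wilson intervals that cover counting error only. In hepatocyte-like cells the E16.5 libraries lie at 77.3 to 80.3% and the P3 libraries at 89.6 to 94.1%.

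Slc30a1, the plasma-membrane zinc exporter, moved in both directions. Its mean was highest in macrophage-like cells, with 21.7, 31.4, 16.4, 19.9 and 32.9 CPM at E16.5 and 30.1, 62.5, 45.9 and 57.5 CPM at P3. The ranges overlapped through library A, and the difference did not pass in this class, where the median gene was 0.58 higher in CPM (log2 fold change 0.43 ± 0.19 SE with adjusted p = 0.0854). The level beyond what went with globin in these cells was 13.2 to 27.4 CPM before birth and 26.7 to 58.7 CPM after it. In megakaryocyte-like cells, the platelet precursors, Slc30a1 rose from 13.1, 14.9, 9.42, 11.5 and 14.8 CPM to 33.9, 23.5, 47.2 and 31.7 CPM without overlap (log2 fold change 1.10 ± 0.24 SE with adjusted p = 0.00204). At P3 their range overlapped that of macrophage-like cells, and they were the higher of the pair in A and C. It also rose in late erythroid-like cells (log2 fold change 1.19, adjusted p = 0.00407, overlapping ranges, means of 3.78 ± 2.46 and 6.50 ± 3.48 CPM), where the median gene was 0.50 lower in CPM, and it fell in B-like (-1.06, adjusted p = 0.0029) and early erythroid-like cells (-0.74, adjusted p = 0.0169). The other 8 classes did not pass, hepatocyte-like cells among them (-0.62, adjusted p = 0.0541). The E16.5 level beyond globin was -0.0104 to 1.71 CPM in B-like cells. Late erythroid-like clusters differed in Slc30a1. At E16.5 the Xpo7-led cluster (6253 cells) held 8.59 CPM, the others (17512 and 12387 cells) 2.40 and 1.81 CPM. At P3 the Tmcc2-led cluster (6597 cells) held 11.7 CPM, the others (9659 and 1328 cells) 0.831 and 5.67 CPM. The part of class make-up in the rise was not tested.

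Slc30a10 had its highest means in erythroblast-like and early erythroid-like cells, while late erythroid-like cells had 19.0 ± 9.23 CPM at E16.5 and 10.6 ± 4.89 CPM at P3. Its level in erythroblast-like cells was 86.6, 88.7, 38.6, 58.9 and 69.8 CPM at E16.5 and 43.9, 70.8, 49.98 and 81.7 CPM at P3. The stages overlapped, with Jag1Ndr/+ replicate 1 lowest of all, and the test did not pass (log2 fold change 0.14 ± 0.17 SE with adjusted p = 0.514), nor did it in early (-0.48, adjusted p = 0.0977) or late erythroid-like cells (-0.46, adjusted p = 0.114). It fell in 7 of 12 classes, hepatocyte-like cells (-0.90, adjusted p = 0.00451) and 6 blood classes with log2 fold changes from -3.97 in neutrophil-like to -2.58 in basophil- and mast-like cells, the last of which did not pass without library A (adjusted p = 0.0738). In E16.5 macrophage-like cells it stood at 21.7 to 52.4 CPM, of which 11.6 to 37.9 CPM would come with their globin, and at P3 at 1.56 to 12.5 CPM. Macrophage-like cells had the highest E16.5 mean of these blood classes, 38.8 CPM. The others had E16.5 means of 14.5 to 20.7 CPM, below the 31.6 CPM of whole E16.5 libraries. The part of free RNA in these falls was not tested. In high-UMI hepatocyte-like cells Slc30a10 did not pass (0.48, adjusted p = 0.195), so the call in hepatocyte-like cells did not hold there.

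Slc39a8 fell in 10 of 12 classes, with endothelial- and mesenchymal-like cells as the exceptions. In early erythroid-like cells, where it was highest at E16.5, it stood at 112, 149, 69.5, 82.7 and 117 CPM at E16.5 and 33.2, 34.5, 37.9 and 48.8 CPM at P3. The ranges were apart, and all P3 libraries were the lower ones (log2 fold change -1.56 ± 0.18 SE with adjusted p = 2.58e-05). Hepatocyte-like cells had 28.2, 37.3, 21.8, 23.6 and 29.8 CPM at E16.5 and 8.36, 7.07, 5.44 and 22.6 CPM at P3, where D reached into the E16.5 range (log2 fold change -1.68 ± 0.28 SE with adjusted p = 0.000277, and -0.74, adjusted p = 0.0443 in high-UMI clusters). Endothelial-like cells kept 97.8, 93.9, 53.4, 91.8 and 82.6 CPM at E16.5 and 79.7, 81.0, 87.4 and 139.9 CPM at P3, with overlapping ranges and D on top (log2 fold change -0.04 ± 0.16 SE with adjusted p = 0.849). There the level beyond what went with globin was 41.4 to 85.6 CPM before birth and 69.4 to 126.1 CPM after it. Among the classes called lower, this E16.5 level was -7.44 to -0.299 CPM in megakaryocyte-like and -1.10 to 4.24 CPM in B-like cells. It was 0.335 to 4.77 CPM in neutrophil-like, 2.28 to 5.31 CPM in monocyte-like and 5.72 to 10.4 CPM in basophil- and mast-like cells. Hepatocyte-like cells had 9.90 to 13.4 CPM and macrophage-like cells 7.35 to 29.7 CPM. The part of free RNA in these falls was not tested. At P3 endothelial-like cells were the highest class (97.0 ± 28.8 (SD, n = 4) CPM), apart from mesenchymal-like cells at 50.9 ± 5.91, whose log2 fold change was 0.10, adjusted p = 0.713. Every P3 mesenchymal-like value came from that 1 insulin-led cluster.

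Slc39a14 was the member most tied to hepatocyte-like cells. They held 42.4 to 56.4% of its UMIs at E16.5 and 15.8 to 48.0% at P3, and their mean level was apart from that of the next class at both stages (52.8 ± 11.0 against 7.34 ± 3.02 CPM, then 56.3 ± 32.3 against 5.77 ± 3.90 CPM). Within hepatocyte-like cells the level was 59.0, 60.8, 33.7, 55.9 and 54.8 CPM at E16.5 and 36.0, 23.0, 92.4 and 73.8 CPM at P3. The P3 libraries spread on both sides of the E16.5 range, B lowest and C highest, and the test did not pass (log2 fold change -0.20 ± 0.32 SE with adjusted p = 0.641). The class joined clusters of different level. At P3 a cluster of 710 cells held 5.11 CPM and the high-UMI cluster of 185 cells 77.5 CPM. The E16.5 clusters held 14.8 and 85.1 CPM. High-UMI cells numbered 78, 23, 39 and 45 in A to D. The part of this mix in the spread and in the stage result was not tested. Slc39a14 was tested in 8 classes and fell in 5, B-like, neutrophil-like and the 3 erythroid classes, where levels stayed under 5.0 CPM throughout (the late erythroid-like call, adjusted p = 0.0217, was lost without B or C). Mtf1 stood between 5.57 and 32.1 CPM in the mean of each tested class and stage. It passed in 1 class, early erythroid-like cells (-0.47, adjusted p = 0.00648), and its ranges overlapped in all 12.

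**Figure D5:**
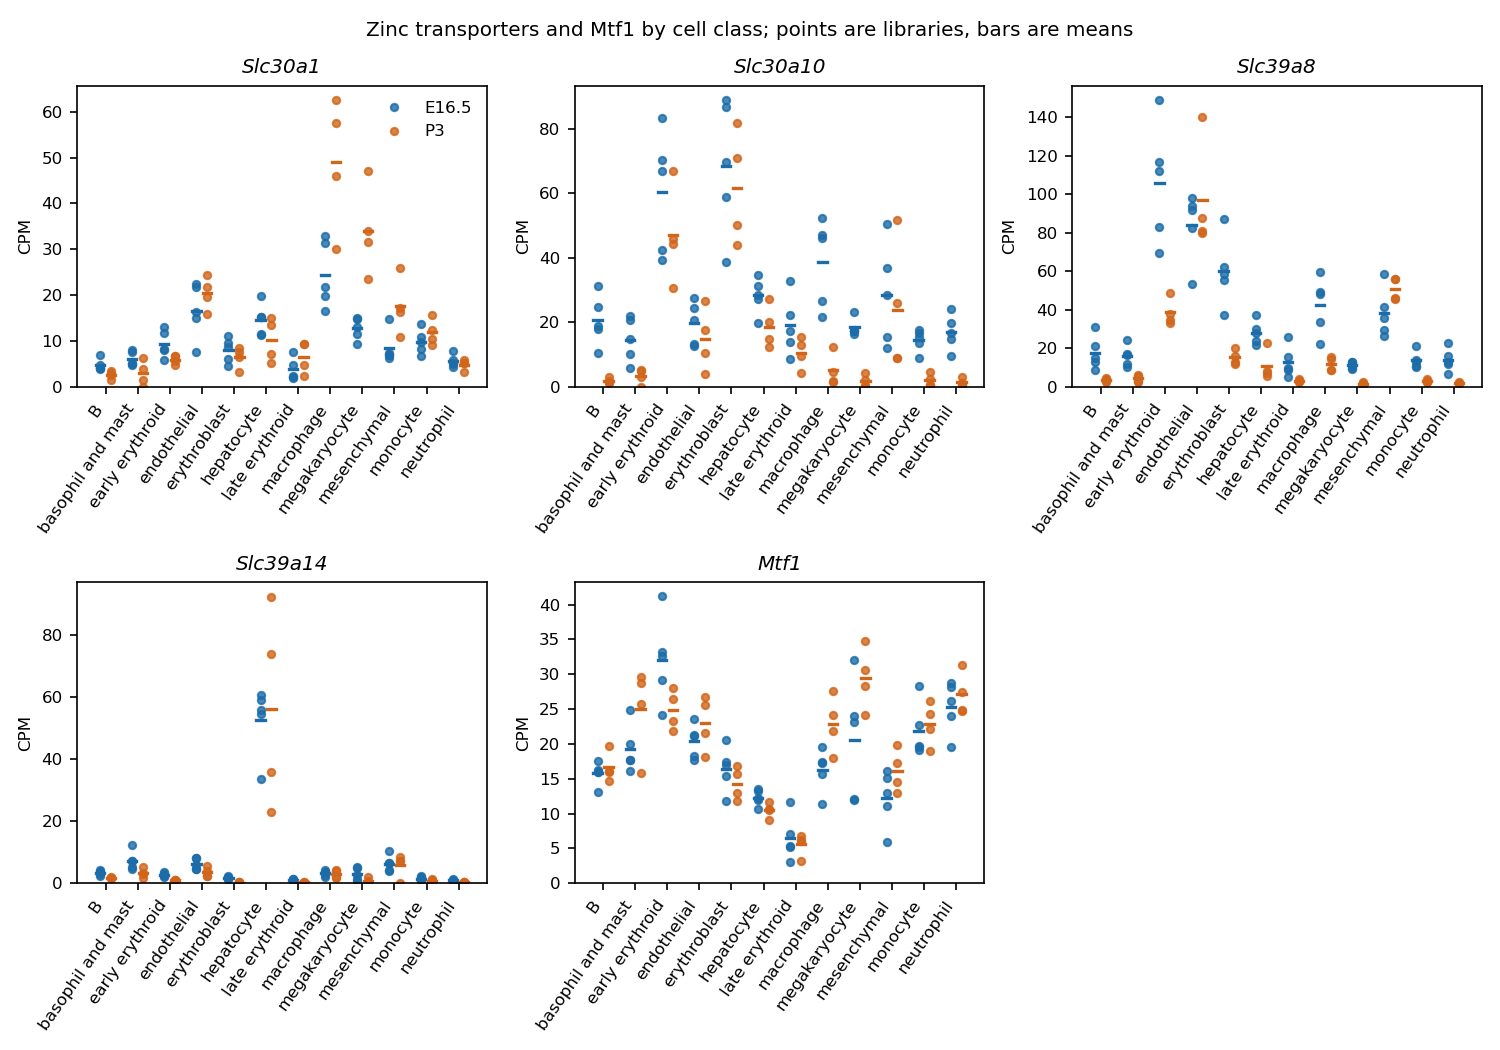
Mtf1 and the 4 transporters in CPM for each tested class, with 1 point per library, coloured by stage. Slc39a14 stands out in hepatocyte-like cells, at 33.7 to 60.8 in E16.5 and 23.0 to 92.4 in P3 livers, and Slc30a10 in erythroblast-like and early erythroid-like cells.

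In hepatocyte-like cells few of the other genes of zinc handling passed the test. Of the members, 4 of 7 passed there and all 4 were lower (median log2 fold change -0.90), against 47.9% of genes called, 23.9% lower and 24.0% higher, with a median of -0.01. Of the other SLC30 transporters, 5 of 8 were tested, 1 was lower and 4 did not pass (median -0.55). Of the other SLC39 transporters, 10 of 12 were tested. Slc39a3 was higher (0.91 ± 0.27 SE with adjusted p = 0.0128) and Slc39a1 lower (-0.91 ± 0.21 SE with adjusted p = 0.00301), and in all 2 were higher, 1 lower and 7 did not pass (median -0.09). Mt3 and Mt4 were too low to be tested.

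Lists of other pathways that are known to act on metallothionein genes or share their metals were counted in the same fit. Among copper genes, 4 were higher, 6 lower and 4 did not pass (median -0.38), with the copper pumps Atp7a (-2.22 ± 0.21 SE with adjusted p = 3.37e-06) and Atp7b (-2.09 ± 0.22 SE with adjusted p = 7.83e-06) lower and the copper chaperones Ccs (2.01 ± 0.23 SE with adjusted p = 1.39e-05) and Sco2 (1.71 ± 0.20 SE with adjusted p = 1.79e-05) higher. Glucocorticoid targets, whose hormone can induce metallothionein, divided into 5 higher, 2 lower and 4 that did not pass (median 0.33). Pck1 (7.48 ± 0.61 SE with adjusted p = 1.1e-06), an enzyme of glucose synthesis, Tat (5.03 ± 0.29 SE with adjusted p = 6.91e-08), an enzyme of tyrosine breakdown, and Klf9 (3.61 ± 0.38 SE with adjusted p = 7.6e-06) were higher, and Hif3a (-3.72 ± 0.30 SE with adjusted p = 9.04e-07) was lower. Targets of interleukin 6 and STAT3, the acute-phase pathway, counted 6 higher, 1 lower and 3 that did not pass (median 0.60), with Lrg1 (6.32 ± 0.30 SE with adjusted p = 1.15e-08), Hp (5.05 ± 0.29 SE with adjusted p = 7.38e-08) and the iron hormone gene Hamp (4.44 ± 0.60 SE with adjusted p = 5.9e-05) higher and the feedback inhibitor Socs3 (-3.68 ± 0.36 SE with adjusted p = 4.26e-06) lower. Of NRF2 targets, the genes of oxidative defence, 1 was higher and 9 did not pass (median 0.11).

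Early response and heat shock genes, which are known to rise when tissue is dissociated, counted 1 higher, 10 lower and 3 that did not pass in hepatocyte-like cells (median -1.50). Atf3 (-3.81 ± 0.51 SE with adjusted p = 4.96e-05), Fosb (-3.77 ± 0.37 SE with adjusted p = 4.96e-06), Zfp36 (-2.94 ± 0.27 SE with adjusted p = 2.82e-06) and Fos (-2.94 ± 0.29 SE with adjusted p = 4.42e-06) were lower at P3. These genes moved in the same direction as Mt1 and Mt2, in a stage comparison that also differs in dissociation, and their part in the metallothionein result was not tested. Of 6 RNAs of secreted hepatocyte proteins, 5 were higher and 1 was lower, Apoa1 (1.82 ± 0.18 SE with adjusted p = 3.93e-06), Ahsg (1.65 ± 0.23 SE with adjusted p = 6.82e-05) and Apoa2 (1.19 ± 0.27 SE with adjusted p = 0.00268) among the higher ones and Alb (-1.18 ± 0.24 SE with adjusted p = 0.0013) the lower one.

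The genes whose levels followed each member most closely were taken from 120 sums per library and class over 9831 genes, by Pearson correlation of log2(CPM + 1). These sums share libraries, cell classes and free RNA, and the values are a description. Mt1 was followed by Mt2 (r = 0.93), the red cell and liver pyruvate kinase Pklr (0.86), Nadk2 (0.84), Spink1 (0.84) and Hif3a (0.80). Slc30a10 stood at rank 34, Slc39a8 at 48, Slc39a14 at 716, Slc30a1 at 2571 and Mtf1 at 5011 in that order. Slc30a10 was closest to Cpox (0.94), an enzyme of heme synthesis, and to Ermap, Add2, Rhag and Ank1 (0.93 to 0.91), genes of the red cell membrane. Add2, Cpox, Ermap, Rhag and Ank1 were also among the markers by which the erythroid classes were named. Slc39a8 went with Camsap2, Myh10, Tmem56, Podxl and Slc43a3 (0.86 to 0.82), Slc39a14 with Hnf4a, the hepatocyte transcription factor, Lss, Pcbd1, Sema4g and Errfi1 (each 0.82), and Slc30a1 with Scamp5, Itgb5, Frmd4b and Trim47 (0.78 to 0.74).

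Genotype was compared at E16.5 between the 2 Jag1Ndr/Ndr libraries and the 3 others. None of the 7 members passed in whole libraries and none of 83 gene and class pairs in the classes, where 0% of 16262 genes (166 at an unadjusted p under 0.05) and 0% of 131915 pairs (2219 unadjusted) were called by edgeR. DESeq2 called 5 genes and 13 pairs, none of them a member. The Mt1 level of the homozygous libraries was 1009.9 and 3243 CPM, the lowest and the highest of the 5, and the others lay between them at 1678, 2619.8 and 1534 CPM. The fitted change was 0.24 ± 0.44 SE with adjusted p = 0.9998 on the log2 scale, and without Jag1Ndr/Ndr replicate 2 it turned to -0.69. The late erythroid-like cells of Jag1+/+ replicate 1 and Jag1Ndr/Ndr replicate 1 lay mostly in one cluster and those of Jag1Ndr/+ replicate 1 and Jag1Ndr/Ndr replicate 2 in another, a split that crosses the genotypes. A fit with this split as a term called 0 members too. Mt1 in megakaryocyte-like cells came closest (log2 fold change 0.86 ± 0.23 SE with adjusted p = 1 from edgeR), which passed when no filter on low counts was set (0.84, adjusted p = 0.00532). With 2 libraries against 3, an absence of calls does not show that the genotypes were alike.

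At P3 each genotype that could be assigned had 1 library, so no test was made between library C (Jag1Ndr/Ndr) and library D (Jag1Ndr/+). In whole libraries Mt1 stood at 294 [291 to 298] CPM in C and 361 [357 to 366] CPM in D (95% Poisson intervals, counting error only). Hepatocyte-like cells held 1912 [1798 to 2031] and 2879 [2752 to 3012] CPM of Mt1, and erythroblast-like cells 48.7 [44.5 to 53.2] and 106 [99.0 to 112] CPM. Mt2 in early erythroid-like cells was 523 [509.7 to 536] CPM in C and 821 [803 to 839.7] CPM in D. These values were higher in D and apart by counting error. Over the 12 tested classes Mt1 went both ways. It was higher in D, with intervals apart, in early erythroid-, erythroblast-, hepatocyte- and neutrophil-like cells. It was lower in D, with intervals apart, in macrophage-like cells (257 [238 to 278] in C and 195 [177 to 214] CPM in D). The same held for endothelial-like, late erythroid-like, B-like and basophil- and mast-like cells. The intervals of the other classes overlapped. How often other genes lay apart by counting error between C and D was not counted, so this is not a result particular to Mt1. The spread between livers of 1 genotype at P3 was not measured.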

How the data were processed

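Gene counts of single-cell libraries from livers of 12 samples (2 per genotype and stage, per the labels) were used as deposited. The authors deposited raw UMI counts per gene and barcode. Cell Ranger 2.1.1, R 4.1.2, Seurat and build mm10 are named in the submitters' processing notes, while per the file headers the matrices came from software version 3.0.2 at P3 and 3.1.0 at E16.5, so stage and software cannot be told apart. Identical or nested samples were reduced to 9 libraries, and the second heterozygous and homozygous P3 samples were not used as libraries of their own. Total UMIs of kept barcodes ranged from 72777843 to 253187351 per library, and intervals cover counting error only.

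Of 208878 barcodes, 184493 had at least 1000 UMIs and at most 15% mitochondrial UMIs. Marked doublets were kept in sums over whole libraries and left out of classes (Scrublet in scanpy 1.11.5, 9.86 to 13.4% of E16.5 barcodes and 4.11 to 9.50% of P3 barcodes), cells were clustered per stage without the 7 members (Leiden, igraph 0.11.9; 23 clusters at E16.5 and 32 at P3), and clusters were named from marker lists. The 2 unnamed clusters, both at P3, and clusters of doublets entered no class, which left 159804 cells. Levels (CPM) are UMIs scaled to a common total over the 22519 genes common to both stages. Genes outside that list held 0.871 to 1.94% of UMIs at E16.5.

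UMI counts were summed per library and class (at least 20 cells) and tested with edgeR 4.0.16 (R 4.3.3, quasi-likelihood, TMM), P3 against E16.5 over 4 and 5 libraries, or Jag1Ndr/Ndr against the other 3 libraries at E16.5. Genes with low counts were filtered out, and p-values were adjusted over all genes tested, or over all class and gene pairs. A call is an adjusted p under 0.05. Nothing in the labels says how the livers of a group relate beyond being separate samples, so p-values measure the spread between these libraries. Single values were compared by exact permutation tests (Python 3.11.15, scipy 1.17.1), on log2(CPM + 1) or on the Mt1 share. The tests were checked on simulated counts. Alternatives were DESeq2 1.42.0, no filter, other cell filters, doublets kept, another pseudocount, a replicate block and leaving out each library.

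The members, lists and tests were chosen with earlier results of these data known, and cluster names were given with each cluster's top genes in view. Genes named were the 7 members, up to 4 genes per list with the largest change among those that passed in hepatocyte-like cells with stage ranges apart, and the 5 genes most like Mt1 and each of the 4 transporters, of which 1 is not reported here.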

Additional observations from a re-analysis of the deposited data

Results flagged for a closer look

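In 4 of 60 groups of library values, 1 library lay far from the rest by Dixon's criterion, where chance gives about 1 in 20. Library D was the high one for Mt1 in P3 hepatocyte-like cells, 2879 CPM against 1889 to 2043 CPM, and for Slc39a8 in the same cells, 22.6 CPM against 5.44 to 8.36 CPM. In whole P3 libraries the share of Mt1 in Mt1 plus Mt2 UMIs was 68.4% in D against 75.0 to 76.0%. Jag1Ndr/+ replicate 1 was low for Slc39a14 in E16.5 hepatocyte-like cells, 33.7 CPM against 54.8 to 60.8 CPM.

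The stage difference was not the same in the 3 classes named as erythroid, which need not hold the same steps of red cell formation at both stages. Early erythroid-like cells differed from erythroblast-like cells by 4.01 more on the log2 scale at P3 than at E16.5 for Mt1, by 3.69 for Mt2 and by 0.49 for Slc39a8, and from late erythroid-like cells by 3.99 for Mt1 and 3.71 for Mt2 (each two-sided exact permutation p = 0.015873, the smallest possible, adjusted 0.0381). With the Tmem14c-led P3 cluster counted as erythroblast-like, the difference was 2.93 for Mt1 and 2.47 for Mt2 and turned to -0.70 for Slc39a8. With the classes as named, no erythroid test passed once any 1 library was left out. For Slc30a1 the direction differed between classes: in megakaryocyte-like cells the E16.5 mean was 0.374 of the P3 mean, while in B-like cells it was the P3 libraries that were all lower, and this difference between classes was not tested.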

How the results depend on the processing

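The stage calls moved little. The number of members called in whole libraries was 4 to 5 with any 1 library left out and 5 under the other alternatives, and the number of class pairs 51 to 55 and 50 to 55. The genotype count stayed at 0 with any library left out, and no filter on low counts gave 1 class pair (571 over all genes). The hepatocyte-like Mt1 share rose by 12.2 to 13.7 points with 1 library left out, but by 6.94 points in high-UMI clusters alone. For whole libraries the range was 4.81 to 7.36, the highest without library D. The erythroid tests gave 0 to 0 calls with a library left out, 6 with a pseudocount of 5, 8 with the Tmem14c-led P3 cluster counted as erythroblast-like (Mt1 2.93, Mt2 2.47, Slc39a8 -0.70), and 5 with the Hbb-y-led E16.5 cluster left out (Slc39a8 0.82), and the planned test of hepatocyte-like against other classes gave 0 of 77 (32 at an unadjusted p under 0.05). Among these 77, 24 had the smallest exact permutation p this design allows, 0.015873, which came to 0.0509 after adjustment. Single values and the counts of the erythroid test were labelled together. Of these, 974 stayed the same (for single values, the same direction and side of the threshold), 9 single values lost a call and 4 turned direction. The 10 that moved were all counts of the erythroid test, with each library left out or with the Tmem14c-led P3 cluster counted in. No single value was among those 10. The genotype fold change turned without Jag1Ndr/Ndr replicate 2 (Mt1 -0.69, Mt2 -0.85), with leave-one-out ranges of -0.69 to 0.83 and -0.85 to 0.71. The cause was not tested.

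With the replicate number as a block, the genotype fold changes also turned (Mt1 -0.030, Mt2 -0.19) and 0 members were called. The labels give only numbers, and deviations of same-numbered libraries correlated at 0.30, 0.08 and 0.29. With 2 homozygous libraries the other-numbered pairs mirror these by construction (-0.30, -0.08 and -0.29), so they do not settle whether the numbers pair the libraries. No paired analysis was possible because P3 libraries carry several replicate numbers, for the stage comparison. The limits are 1 embryonic library under 2 genotypes, 2 of 4 postnatal libraries of unclear genotype, free RNA, and stages that differ in dissociation and software.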

Other observations

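Among P3 neutrophil-like clusters, the precursors led by the elastase gene Elane held 439.5, 453, 484 and 493 CPM of Mt1 in A to D with an Mt1 share of 97.4 to 99.3%, while of the 2 clusters led by Retnlg, a gene of mature neutrophils, the larger (2958 cells) held 22.4 to 35.1 CPM and the smaller (279 cells, 48.5% of whose barcodes were marked as doublets) 102 CPM over all libraries. The largest P3 neutrophil-like cluster, 5071 cells led by Chil3, held 51.0 to 68.4 CPM of Mt1. A P3 cluster of 348 cells led by Il1b, with Retnlg also among its leading genes, held 276.6 CPM of Mt1 and 830 CPM of Alb over all libraries. The E16.5 Elane cluster held 402 to 974 CPM with a share of 73.9 to 84.6%. A P3 cluster of 2910 cells led by Tmem14c, a gene of heme synthesis, was in no class by the naming rule. It held 68.2 to 128 CPM of Slc30a10 and 52.5 to 77.2 CPM of Slc39a8. Across high-UMI hepatocyte-like cells of 1 library, Mt1 and Mt2 levels correlated with r from 0.56 to 0.83, cells of a library being no replicates.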
